A study of Mus musculus with 4 samples.

Results

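Heat-shock proteins, the cochaperones of HSP90 and the chaperonins were followed in RNA from isolated alveolar type II cells, the epithelial cells that make lung surfactant. The set holds 36 gene symbols of the cytosolic and mitochondrial protein-folding machinery, of which 35 were measured among 25759 symbols in all, and Cct6a was not analysed here. Members were chosen by gene family and with the mTOR Tg to WT fold changes of these libraries in view, so their genotype differences are given as a description. The mTOR Tg group comprised 2 libraries from C57BL/6 mice aged 14 weeks whose genotype is given as Sftpc-mTOR, a conditional transgene of active mTOR named after the surfactant protein C gene. The WT group comprised 2 libraries from wild-type C57BL/6 mice of the same age. The isolation of the cells, any agent used to switch the transgene on, the sex of the mice and whether a library came from a single mouse were not stated, so p-values measure only the spread between these libraries, which may be technical.

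Molecular chaperones bind unfolded proteins and let them fold or pass on for degradation. Hsp70 proteins work in cycles of ATP hydrolysis that J proteins start and exchange factors of the Hsp110 and BAG families end, and HSP90 takes over late folding of kinases and receptors with the help of its own cochaperones. The ring-shaped chaperonin TRiC folds actin and tubulin, and Hsp60 with its lid Hsp10 serves the mitochondrial matrix. Heat-shock factor 1 raises transcription of many of these genes under stress by binding heat-shock elements, repeats of the letters GAA in alternating orientation. The inducible Hsp70 genes are its classic targets, and their transcripts also rise when tissue is dissociated into cells.

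The inducible Hsp70 genes Hspa1a (chromosome 17, 34969190 to 34972156, minus strand) and Hspa1b (chromosome 17, 34956436 to 34959238, minus strand, GRCm38) are neighbours and near-identical copies. Of all windows of 50 bases in the Hspa1a transcript, 58.8% also occur in Hspa1b, and 62.3% of those in Hspa1b occur in Hspa1a. Reads from the shared part can be split between the copies or lost, so the summed counts of both genes are given beside each gene. Their promoters match at 149 of the last 150 bases before the start. The promoter stretches below are shown because they carry the letters of a heat-shock element, read from RefSeq on GRCm38.p6, 5′ to 3′ on the strand of the gene, with each match to GAANNTTC or TTCNNGAA in capitals. Each of these 8-letter motifs is its own reverse complement, so a match counts for both strands. Positions count back from -1, the base before the annotated start.
Hspa1a, chr17:34972157-34972306, minus strand: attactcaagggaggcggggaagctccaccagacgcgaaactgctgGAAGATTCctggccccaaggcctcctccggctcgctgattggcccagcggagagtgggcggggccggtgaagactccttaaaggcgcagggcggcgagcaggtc
Hspa1b, chr17:34959239-34959388, minus strand: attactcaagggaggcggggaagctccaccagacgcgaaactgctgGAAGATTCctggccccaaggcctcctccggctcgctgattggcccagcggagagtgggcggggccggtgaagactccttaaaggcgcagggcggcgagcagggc
Hspb1, chr5:135887787-135887844, plus strand: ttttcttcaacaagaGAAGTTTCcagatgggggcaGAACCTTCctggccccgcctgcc
Hspe1, chr1:55088053-55088082, plus strand: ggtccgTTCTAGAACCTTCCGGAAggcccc
Hsph1, chr5:149636351-149636380, minus strand: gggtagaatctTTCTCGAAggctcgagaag
Fkbp4, chr6:128438789-128438818, minus strand: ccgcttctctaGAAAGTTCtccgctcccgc

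The match began at position -104 in both inducible Hsp70 genes. Hspb1 held 2 matches, at -117 and -97. Hspe1 and Hspd1 are transcribed away from each other. The run of 3 overlapping matches printed for Hspe1 also lies in an Hspd1 window on the opposite strand, and a further Hspd1 window held no match. Some printed stretches overlap annotated exons: that of Hspe1 an exon of Hspd1, that of Hsph1 an exon of Hsph1 itself, and that of Fkbp4 an exon of Gm10069. A promoter window of 300 bases (250 before the start and 50 after) was at hand for 29 members, Cct6a included. Hspa8, Hsp90aa1, Hsp90ab1, Cryab, Hsf1, Hspa9 and Cct4 had none. At least 1 match was found in 16 of the 29 (55.2%), against 4587 of 27025 genes with a window (17.0%). The longer form, in which a further GAA or TTC follows at the same spacing, was found in Hsph1, Chordc1, Hspd1 and Hspe1 (13.8% of the 29), against 0.662% of all genes. These matches describe letters in a window and do not show binding.

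The libraries held 21972124 and 20273396 counts in mTOR Tg and 18146693 and 19018785 counts in WT. mTOR Tg replicate 1 stood apart: across genes its log2 CPM correlated with the other libraries at Pearson's r of 0.951 to 0.955, against 0.983 to 0.988 among those (genes are not independent replicates). Its shortest quartile of transcripts (up to 1990 bases) lay a median of 0.44 (log2) above the other libraries and its longest quartile 0.56 below. Of the 35 members, 8 were in the shortest quartile and 3 in the longest. Summed club cell markers (6 of 6 detected) were 168816 and 59458 CPM in mTOR Tg and 88099 and 94851 CPM in WT, and summed ciliated cell markers (7 of 7 detected) were 4002 and 2276 CPM in mTOR Tg and 2482 and 2870 CPM in WT. Type II cell markers (10 of 10 detected) summed to 101100 and 126814 CPM in mTOR Tg and 122753 and 105176 CPM in WT. Sftpc, a surfactant protein, was at 72570 and 73800 normalised CPM in mTOR Tg and 75840 and 61010 in WT. The club cell gene Scgb1a1 was at 149300 and 43870 in mTOR Tg and 70880 and 72590 in WT, and the ciliated cell factor Foxj1 at 857 and 353 in mTOR Tg and 332 and 423 in WT. The 7 measured leukocyte markers summed to 14.8 and 17.1 CPM in mTOR Tg and 15.4 and 12.1 CPM in WT. Cd3e and C1qb were at 0 in every library. Cd79b was at 12.5 and 12.4 normalised CPM in mTOR Tg and 10.7 and 8.95 in WT. Of the other lists, the type I, endothelial and mesothelial sums separated the genotypes, while the fibroblast and red cell sums overlapped. Gene by gene, groups overlapped in 3 of 5 type I genes. Type I cell markers (5 of 5 detected) summed to 1853 and 1553 CPM in mTOR Tg and 1468 and 1370 CPM in WT, endothelial markers (7 of 7) to 79.2 and 71.8 CPM in mTOR Tg and 123 and 132 CPM in WT, and mesothelial markers (4 of 4) to 26.2 and 19.2 CPM in mTOR Tg and 9.26 and 17.6 CPM in WT. Fibroblast and pericyte markers (6 of 6) summed to 32.2 and 62.5 CPM in mTOR Tg and 46.6 and 32.1 CPM in WT. Red cell genes (5 of 5) summed to 3235 and 1041 CPM in mTOR Tg and 2548 and 3683 CPM in WT. The red cell, club cell, ciliated cell and endothelial sums were lowest in mTOR Tg replicate 2, as inducible Hsp70 was. WT replicate 1, where inducible Hsp70 was highest, had the highest sum in none of these lists. In such bulk samples fewer cells of a type and less RNA per cell cannot be told apart. The part of transcript length or cell makeup in the member values below was not tested, apart from a correction for length and GC content, whose value is given where it moved a member by more than the spread between replicates.

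Inducible Hsp70 and the other classes differed in direction. Summed Hspa1a and Hspa1b transcripts averaged lower in mTOR Tg than in WT, with groups that overlapped. Of the 33 other members, 31 had a higher average in mTOR Tg, where 50.9% of all genes tested had a positive log2 fold change. Hspa1a was at 193 and 26.6 normalised CPM (CPM, read counts scaled to a common library size, here adjusted by TMM factors) in mTOR Tg, against 1170 and 149 in WT. Hspa1b stood at 431 and 38.5 normalised CPM in mTOR Tg, against 1385 and 237 in WT. Replicate 1 of each genotype was the higher library for both genes, WT replicate 1 was the highest of all and mTOR Tg replicate 2 the lowest, and mTOR Tg replicate 1 lay above WT replicate 2.

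Summed over both genes there were 12703 and 1360 counts in mTOR Tg and 46543 and 7634 counts in WT. That is 344 ± 395 normalised CPM in mTOR Tg and 1471 ± 1534 in WT (n = 2 each, ± SD). The log2 fold change was -2.10 (SE 1.24). The standard deviation exceeded the mean in each genotype. Leaving out WT replicate 1 brought the log2 fold change to -0.17, and leaving out mTOR Tg replicate 1 to -4.50. It was -1.24 when mTOR Tg replicate 2 was left out and -2.89 when WT replicate 2 was. For the single genes the log2 fold change was -2.59 (SE 1.23) for Hspa1a and -1.79 (SE 1.23) for Hspa1b.

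**Figure D1:**
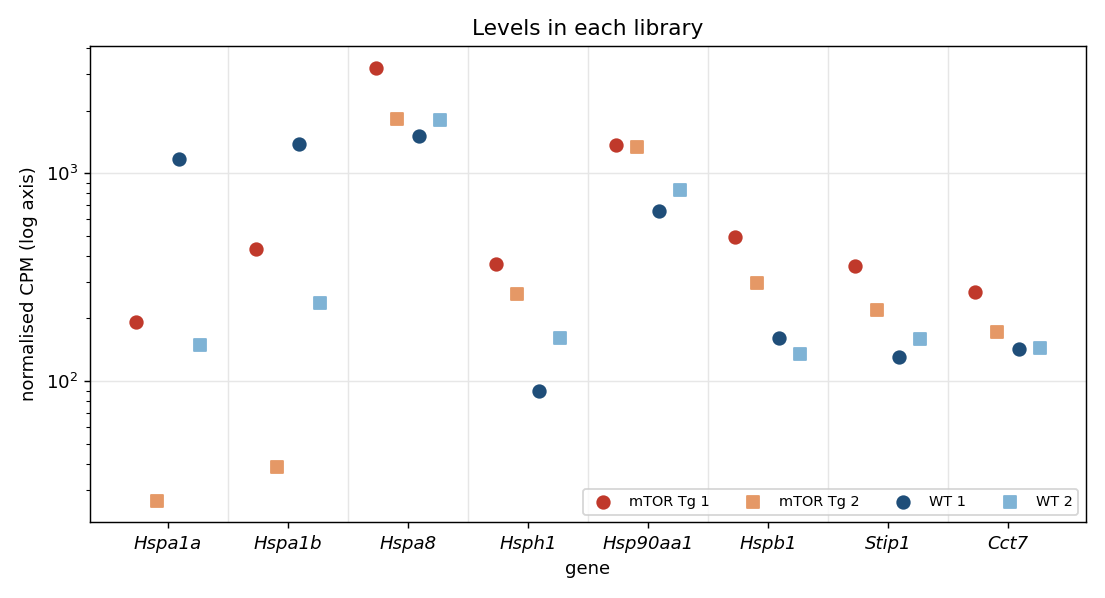
Normalised CPM (log axis) of 8 members in each of the 4 libraries, 1 point per library. Hspa1a and Hspa1b are spread over a wide range in both genotypes, while Hsph1, Hsp90aa1, Hspb1, Stip1 and Cct7 have both mTOR Tg points above both WT points.

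The gap between replicates of inducible Hsp70 was among the widest of any gene. In WT the replicates lay 2.97 apart on the log2 scale for Hspa1a and 2.55 for Hspa1b, ranks 24 and 31 of 13306 genes tested. The mTOR Tg replicates lay 2.85 apart for Hspa1a and 3.48 for Hspa1b, ranks 54 and 24. Only 264 genes lay over 2-fold apart between the WT replicates, against 1949 between the mTOR Tg replicates. No other member was 2-fold apart in WT. The nearest was Hsph1, which encodes an Hsp110 exchange factor, where WT replicate 1 lay 0.85 below replicate 2. In mTOR Tg the next widest was Dnajb1, the J protein that serves inducible Hsp70, with replicate 1 higher by 1.52.

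The other classes did not share the excess of WT replicate 1. The 33 members outside inducible Hsp70 were lower in WT replicate 1 than in WT replicate 2 by a median of 0.16 (log2). Of these, 27 were lower in WT replicate 1, as were 6626 of 13306 genes tested. All 6 HSP90 cochaperones, both Hsp90 genes and all 4 constitutive Hsp70 and Hsp110 genes were among the 27. The summed inducible counts equalled 1.70 times the Hspa8 counts in WT replicate 1. In mTOR Tg replicates 1 and 2 that ratio was 0.194 and 0.0359, and in WT replicate 2 it was 0.213. Inducible Hsp70 made up 4.32% and 0.662% of the counts of all members in mTOR Tg, against 27.3% and 4.61% in WT.

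**Figure D2:**
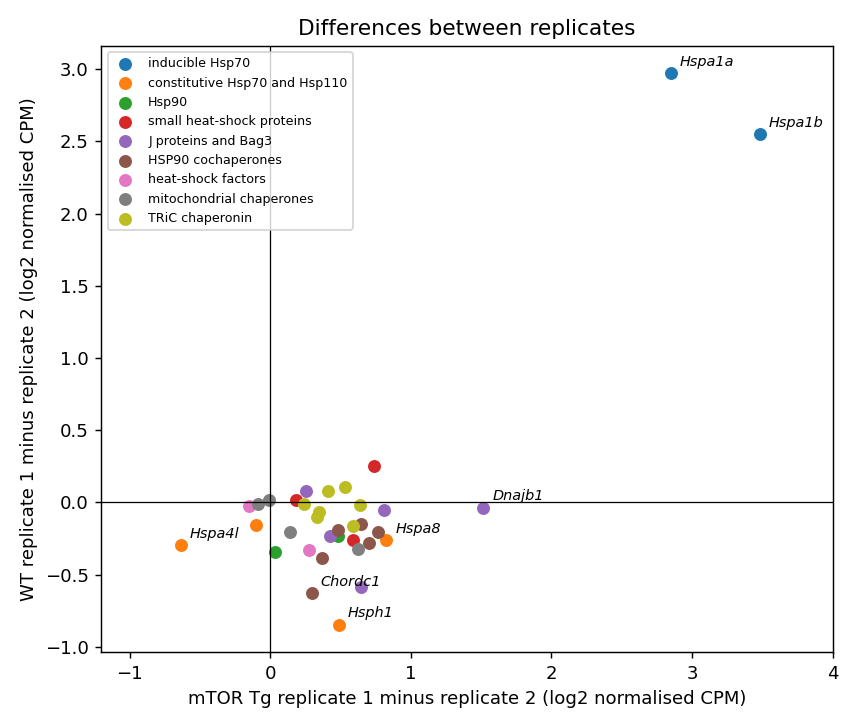
Each point is a member, placed by the log2 difference between the mTOR Tg replicates (x axis) and between the WT replicates (y axis), coloured by class. Hspa1a and Hspa1b lie far to the upper right, and the other members lie within 1 log2 unit of 0 on both axes except Dnajb1, at 1.52 on the x axis.

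The split between the copies also varied. Hspa1b had 2.24 and 1.45 times the counts of Hspa1a in mTOR Tg, against 1.18 and 1.59 times in WT. As a share of the summed counts, Hspa1b took 69.1% and 59.1% in mTOR Tg and 54.2% and 61.3% in WT.

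Across all genes, edgeR's quasi-likelihood test called 0 of 13306 genes between the genotypes at an adjusted p under 0.05 (0.00%), and so 0 members. The smallest adjusted p was 0.860 by edgeR. Unadjusted, 327 genes had p under 0.05 by edgeR. limma-voom called 0 genes, and DESeq2 called 12 of 13306, of which Hspb1 is the 1 member. The number of calls changed widely with which library was left out. Those fits leave 1 library in a genotype, and that library is assumed to vary like the other genotype, so their calls are not given. An exact permutation test cannot pass the threshold with 2 samples against 2. Of the members, 24 had both mTOR Tg libraries above both WT libraries, where 17.6% of all genes tested did so, and 1 had both below, where 17.0% of all genes did. A log2 fold change above 0 was found for 31 of 35 members and for 50.9% of all genes. The median was 0.38 over the members and 0.01 over all genes. Nothing about the members is read from these shares, since the same fold changes were known when they were chosen. Without mTOR Tg replicate 1 the number of members with a positive log2 fold change was 29.

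**Figure D3:**
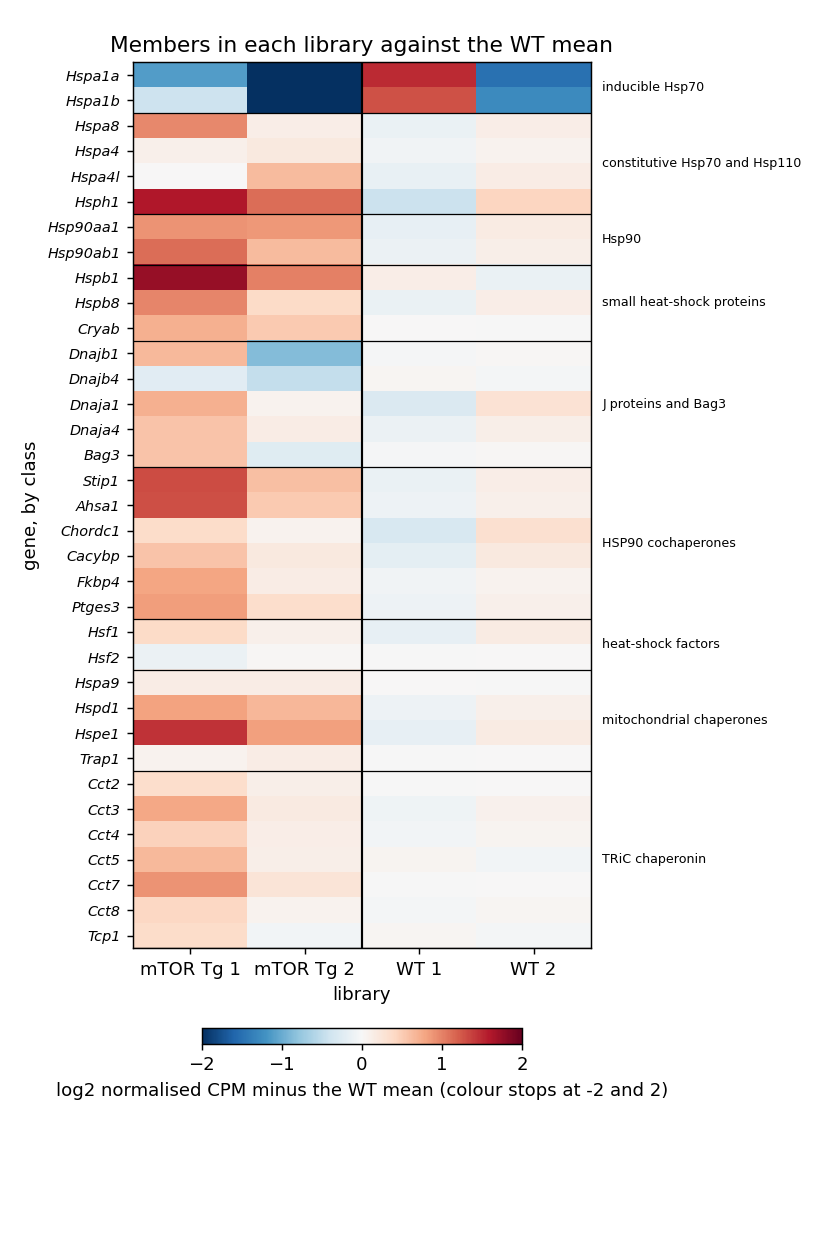
Colour gives the log2 normalised CPM of each measured member in each library minus the mean of the WT libraries, with members in rows grouped by class and the mTOR Tg libraries in the left columns. The inducible Hsp70 rows run blue in mTOR Tg and split between red and blue in WT, while most other rows are red in mTOR Tg replicate 1 and paler red in replicate 2.

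Both HSP90 genes were higher in both mTOR Tg libraries, as were 17.6% of all genes tested. Hsp90aa1, the stress-responsive cytosolic form, was at 1372 and 1337 normalised CPM in mTOR Tg and 654 and 828 in WT, a log2 fold change of 0.87 (SE 0.23). Hsp90ab1, the constitutive form, was at 3349 and 2396 normalised CPM in mTOR Tg, against 1424 and 1672 in WT, with a log2 fold change of 0.89 (SE 0.28). The mTOR Tg libraries agreed closely for Hsp90aa1 (1355 ± 24.9 normalised CPM, SD, n = 2), in contrast to inducible Hsp70 in the same libraries. Of the windows of 50 bases in Hsp90aa1, 58.5% occur in transcripts of other genes, chiefly Gm12346, so its counts depend on how shared reads were handled.

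All 6 HSP90 cochaperones had a positive log2 fold change, with a median of 0.55, where 50.9% of all genes tested were positive. In 5 the groups did not overlap, with mTOR Tg higher, as in 17.6% of all genes tested. Stip1, the adaptor that links Hsp70 to HSP90, was at 356 and 219 normalised CPM in mTOR Tg and 131 and 159 in WT, a log2 fold change of 0.99 (SE 0.29). Ahsa1, which stimulates the ATPase of HSP90, was at 195 and 115 normalised CPM in mTOR Tg, against 74.1 and 85.3 in WT (log2 fold change 0.96, SE 0.30). Ptges3, the p23 protein that stabilises closed HSP90, was at 196 and 140 normalised CPM in mTOR Tg and 103 and 118 in WT (log2 fold change 0.61, SE 0.24). All 3 genes were highest in mTOR Tg replicate 1.

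Fkbp4, a prolyl isomerase of steroid receptor complexes, was at 838 and 534 normalised CPM in mTOR Tg and 460 and 511 in WT, so that mTOR Tg replicate 2 lay only 0.06 (log2) above WT replicate 2. Cacybp, a calcyclin-binding protein, was at 70.9 and 55.0 normalised CPM in mTOR Tg and 42.1 and 54.8 in WT, with mTOR Tg replicate 2 and WT replicate 2 almost level. Chordc1, an HSP90-binding protein, overlapped between genotypes at 78.4 and 63.8 normalised CPM in mTOR Tg and 48.8 and 75.5 in WT. Its transcript is long (5789 bases), and its log2 fold change was 0.19, or 0.92 after correction for length and GC content. The median of the cochaperones was 0.26 with mTOR Tg replicate 1 left out and 0.81 with mTOR Tg replicate 2 left out.

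The small heat-shock proteins, which hold unfolded proteins without ATP, were all higher in both mTOR Tg libraries, as were 17.6% of all genes tested. Hspb1 had the largest positive log2 fold change of the members, at 495 and 297 normalised CPM in mTOR Tg and 161 and 135 in WT (1.42, SE 0.30). Each mTOR Tg library exceeded each WT library by at least 0.88 (log2). Its short transcript (930 bases) falls in the shortest quartile, and the log2 fold change was 0.97 after the length and GC correction. A pseudogene, Hsp25-ps1, shares 51.6% of its windows.

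Hspb8, the partner of Bag3 in selective autophagy, was at 104 and 68.8 normalised CPM in mTOR Tg and 48.3 and 57.7 in WT. Cryab, the alpha B crystallin also found in lens and muscle, was at 45.5 and 40.1 normalised CPM in mTOR Tg and 28.0 and 27.7 in WT. The Cryab groups were separated by far more than the gap within either genotype, with a log2 fold change of 0.62 (SE 0.20) that became 0.34 after the length and GC correction.

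Among the constitutive Hsp70 and Hsp110 genes, Hsph1 differed most. It was at 366 and 261 normalised CPM in mTOR Tg and 89.9 and 162 in WT, a log2 fold change of 1.32 (SE 0.35), with the lowest value in the WT library that had most inducible Hsp70. Hspa8, the constitutive Hsp70 that also uncoats clathrin vesicles, was at 3217 and 1816 normalised CPM in mTOR Tg and 1506 and 1807 in WT. The gap of Hspa8 therefore rests on mTOR Tg replicate 1: the log2 fold change was 0.60 (SE 0.34), and 0.13 without that library. Most windows of Hspa8 (73.2%) occur in transcripts of other genes, chiefly Gm15459.

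The Hsp110 gene Hspa4 was at 144 and 154 normalised CPM in mTOR Tg and 128 and 142 in WT, a log2 fold change of 0.14 (SE 0.19), or 0.36 after the length and GC correction. Its paralogue Hspa4l was highest in mTOR Tg replicate 2 and overlapped between genotypes, at 140 and 217 normalised CPM in mTOR Tg and 126 and 155 in WT. With its transcript of 9479 bases, the log2 fold change of Hspa4l was 0.35, or 0.92 after the length and GC correction, and -0.01 without mTOR Tg replicate 2. The class median was 0.48, and 0.70 after that correction.

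Among J proteins and Bag3, groups overlapped in 3 of 5 genes, as in 8707 of 13306 genes tested. Dnajb1 was at 157 and 55.0 normalised CPM in mTOR Tg and 98.8 and 101 in WT, so the mTOR Tg libraries lay on either side of WT. Bag3, the exchange factor that directs clients to autophagy, showed the same order at 92.8 and 52.9 normalised CPM in mTOR Tg and 61.6 and 63.8 in WT. In mTOR Tg replicate 2, the library with least inducible Hsp70, Dnajb1 and Bag3 were lowest too. Without mTOR Tg replicate 1 the log2 fold change of Dnajb1 was -0.86 and that of Bag3 -0.24, against 0.09 and 0.22 with all libraries.

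Dnajb4, a relative of Dnajb1, was the 1 member with both mTOR Tg libraries below both WT libraries, at 43.6 and 36.5 normalised CPM in mTOR Tg and 52.3 and 49.4 in WT (log2 fold change -0.34, SE 0.20). After the length and GC correction it was -0.12. Dnaja1, a general J protein of the cytosol, was at 500 and 319 normalised CPM in mTOR Tg and 249 and 374 in WT, with overlap. Its log2 fold change was 0.40, and 0.91 after the length and GC correction. Dnaja4 was at 187 and 140 normalised CPM in mTOR Tg and 116 and 137 in WT, with mTOR Tg replicate 2 only 0.03 (log2) above WT replicate 2.

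The transcripts of the heat-shock factors themselves overlapped between genotypes. Hsf1 was at 52.3 and 43.1 normalised CPM in mTOR Tg and 35.8 and 44.9 in WT, a log2 fold change of 0.24 (SE 0.23) that became 0.0088 after the length and GC correction. Hsf2, which pairs with Hsf1 in some responses, was at 10.1 and 11.2 normalised CPM in mTOR Tg and 10.9 and 11.1 in WT, and its log2 fold change of -0.05 (SE 0.22) changed sign to 0.10 after that correction. The libraries were within 0.55 (log2) of each other for Hsf1. Factor 1 is known to be controlled mainly at the protein level.

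Among the mitochondrial chaperones the differences varied in size. The chaperonin pair Hspd1 (Hsp60) and Hspe1 (Hsp10), whose promoter windows share the matches printed for Hspe1, stood well apart from WT. Hspd1 was at 219 and 199 normalised CPM in mTOR Tg and 116 and 134 in WT, a log2 fold change of 0.74 (SE 0.20). For Hspe1 the values were 152 and 98.8 normalised CPM in mTOR Tg and 49.9 and 62.3 in WT, a log2 fold change of 1.16 (SE 0.28), or 0.85 after the length and GC correction. The ratio of Hspe1 to Hspd1 counts was 0.695 and 0.498 in mTOR Tg and 0.429 and 0.464 in WT. Both genes have processed copies, and 44.8% of the windows of Hspd1 and 36.1% of those of Hspe1 occur in transcripts of other genes.

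Hspa9, the mitochondrial Hsp70, was at 162 in both mTOR Tg libraries, against 147 and 146 normalised CPM in WT, and Trap1, the mitochondrial HSP90, was at 87.2 and 92.6 in mTOR Tg and 82.8 and 83.5 in WT. Their log2 fold changes were small, 0.15 (SE 0.18) for Hspa9 and 0.11 (SE 0.18) for Trap1. After the length and GC correction they were 0.24 for Hspa9 and 0.00 for Trap1.

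All 7 measured subunits of TRiC had a positive log2 fold change, from 0.17 for Tcp1 to 0.61 for Cct7, with a median of 0.31. A positive value was found for 50.9% of all genes tested. Groups did not overlap in 6 of the 7, with mTOR Tg higher, as in 17.6% of all genes tested. Cct7 was at 268 and 172 normalised CPM in mTOR Tg and 143 and 145 in WT. Cct3 stood at 186 and 124 normalised CPM in mTOR Tg and 103 and 115 in WT. Tcp1, the subunit that gave the complex its name, overlapped at 171 and 128 normalised CPM in mTOR Tg and 136 and 129 in WT.

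The remaining subunits had groups that did not overlap, with mTOR Tg higher, as in 17.6% of all genes tested. They lay close in mTOR Tg replicate 2 and WT. Cct2 was at 127 and 107 normalised CPM in mTOR Tg and 98.3 and 99.2 in WT, and Cct4 at 129 and 103 in mTOR Tg and 90.3 and 97.0 in WT. Cct5 was at 169 and 117 in mTOR Tg and 112 and 104 in WT, and Cct8 at 118 and 92.9 in mTOR Tg and 86.7 and 90.8 in WT. Their log2 fold changes were 0.24, 0.31, 0.40 and 0.25 in that order. The excess lay mostly in mTOR Tg replicate 1, where the median subunit was 0.46 above the WT mean, against 0.11 in mTOR Tg replicate 2. Without mTOR Tg replicate 1 the median was 0.11. Subunits of 1 complex are not independent replicates.

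**Figure D4:**
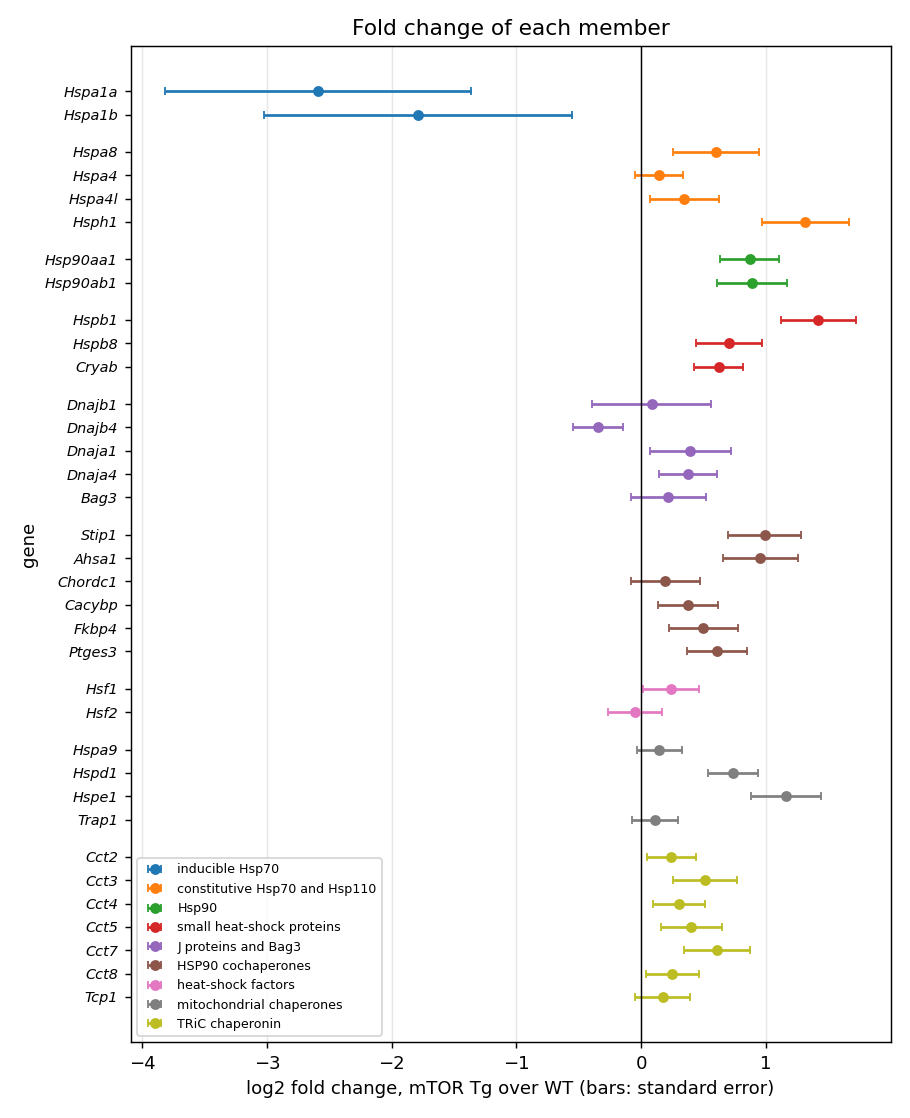
Log2 fold change of mTOR Tg over WT for each measured member, with its standard error as a bar, coloured by class. Hspa1a and Hspa1b lie at -2.59 and -1.79 with the widest bars, and 31 of the other 33 members lie right of 0, up to 1.42 for Hspb1.

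Set against each class within a library, inducible Hsp70 changed place. On the log2 scale of normalised CPM, which is not per length and so serves to compare libraries only, the summed pair minus the median of all other members was 1.95 and -0.92 in mTOR Tg, against 4.64 and 1.75 in WT. The difference of the genotype means was -2.68, with SDs of 2.03 in mTOR Tg and 2.04 in WT (n = 2 each). The same contrast taken from the fit, as the log2 fold change of the pair minus the median log2 fold change of the other members, was -2.49. For the 8 classes taken singly that difference ran from -3.18 against Hsp90 to -2.20 against J proteins and Bag3. In every class mTOR Tg replicate 2 was lowest and WT replicate 1 highest, and mTOR Tg replicate 1 and WT replicate 2 lay closest to each other. The contrast therefore differs by more between the replicates of a genotype than between mTOR Tg replicate 1 and WT replicate 2.

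**Figure D5:**
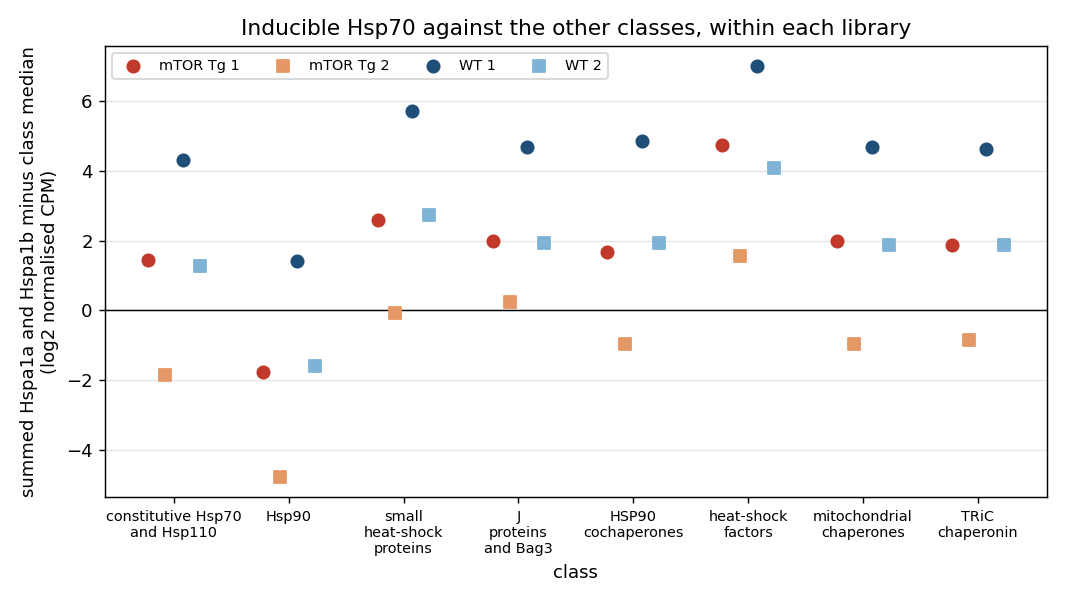
Summed Hspa1a and Hspa1b minus the median of each other class, in log2 normalised CPM, 1 point per library. WT replicate 1 is the top point and mTOR Tg replicate 2 the bottom point in all 8 classes, with mTOR Tg replicate 1 and WT replicate 2 close together between them.

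Per length, Hspa8 and Hsp90ab1 were the most abundant single members in every library. Hspa8 was at 1344 and 759 normalised CPM per kb of its longest coding transcript in mTOR Tg and 629 and 755 in WT. Hsp90ab1 was at 1329 and 951 normalised CPM per kb in mTOR Tg and 565 and 664 in WT. The summed inducible pair was at 216 and 22.6 normalised CPM per kb in mTOR Tg and 886 and 134 in WT, so that in WT replicate 1 it exceeded Hspa8. Its per-length level (over the mean length of both transcripts) was below that of 5 and 27 of the 33 other members in mTOR Tg replicates 1 and 2, and below that of 0 and 5 in WT replicates 1 and 2. Hsf2 had the lowest level per length, 3.88 and 4.30 normalised CPM per kb in mTOR Tg and 4.20 and 4.27 in WT.

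Other chaperone genes were listed by function. Of 76 such genes 72 were tested. Groups did not overlap in 21 with mTOR Tg higher, where 17.6% of all genes tested did so, and in 7 with mTOR Tg lower, where 17.0% did. A positive log2 fold change was found for 49 of the 72 and for 50.9% of all genes, and the median was 0.17. Leaving out mTOR Tg replicate 1 brought that median to 0.01, and leaving out mTOR Tg replicate 2 to 0.32. The further HSP90 cochaperones had 16 of 17 positive members. Ahsa2, a relative of Ahsa1, was at 69.3 and 42.2 normalised CPM in mTOR Tg and 22.6 and 30.4 in WT (log2 fold change 1.07, SE 0.31). Nudc, an HSP90-associated protein of the CS domain family, was at 339 and 162 normalised CPM in mTOR Tg and 131 and 139 in WT.

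Of the further members of the Hsp70 family, 2 of 6 had a positive log2 fold change and 4 of 6 were lower in both mTOR Tg libraries. Over all genes tested these shares were 50.9% and 17.0%. Hspa13, a microsomal Hsp70, was at 21.5 and 44.6 normalised CPM in mTOR Tg and 50.8 and 53.8 in WT, and Hspa2, known from the testis, overlapped at 131 and 72.2 in mTOR Tg and 70.0 and 81.6 in WT. Of the other J proteins 7 of 13 were positive (median 0.03), and of the Hsp70 cochaperones and exchange factors 6 of 8 (0.28). Of the further tested genes with an Hspb symbol, 2 of 3 were positive (0.30). Prefoldin and related partners of TRiC had 7 of 9 positive (0.20) and mitochondrial quality control genes 5 of 8 (0.12). Other factors and regulators had 4 of 8 (0.12). Examples were Dnajb2 and Dnajb5 with log2 fold changes of 0.49 and -0.41, Hspbp1 and St13 with 0.59 and 0.34, and Hspb11 and Hspb2 with 0.42 and 0.30. Pfdn1 and Pfdn6 were at 0.31 and 0.34, Clpp and Grpel1 at 0.44 and 0.28, and Serpinh1 and Hsbp1 at 0.61 and 0.31.

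Immediate early genes, known to be induced together with Hsp70 when tissue is dissociated, summed to 5826 and 4388 CPM in mTOR Tg and 5981 and 6278 CPM in WT (21 of 21 detected). Of 19 tested, 8 had both mTOR Tg libraries below both WT libraries, as did 17.0% of all genes tested, and 3 had both above, as did 17.6% of all genes, with a median log2 fold change of -0.16. A positive log2 fold change was found for 7 of the 19, against 50.9% of all genes tested. The 3 with both mTOR Tg libraries above were Ier3, Socs3 and Myc, with log2 fold changes of 0.76, 0.42 and 0.80. Among the 8 with both below, Fos was at 559 and 448 normalised CPM in mTOR Tg and 684 and 719 in WT. Jun stood at 1034 and 814 in mTOR Tg and 1343 and 1190 in WT, Egr1 at 167 and 148 in mTOR Tg and 289 and 239 in WT, and Atf3 at 63.6 and 28.2 in mTOR Tg and 70.7 and 65.8 in WT. The summed list was lowest in mTOR Tg replicate 2, as inducible Hsp70 was, but it did not single out WT replicate 1: the WT libraries differed by a median of 0.07 (log2) over the list with replicate 1 lower, and by 2.73 for the summed pair with replicate 1 higher. The part of dissociation in the inducible Hsp70 values was not tested. With 1 library left out the median of the list ranged from -0.48 (mTOR Tg replicate 1 removed) to -0.06 (mTOR Tg replicate 2 removed).

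Among the 26 other measured members with a promoter window, 13 held a heat-shock element match and 13 held none. Hspa8 and both Hsp90 genes had no window and are in neither set. The median log2 fold change was 0.40 over those with a match and 0.35 over those without. In each set 12 of 13 were positive, against 50.9% of all genes tested. Hspa1a and Hspa1b, with negative log2 fold changes, also held a match. Members were chosen with these fold changes known, so the split cannot speak to the heat-shock element, whose part was not tested.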

How the data were processed

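The deposited values were whole-number read counts per gene symbol for 4 libraries in 1 table, tied to samples by the sample names in the labels. The build mm10 and the tools HISAT2 and edgeR are named, without their roles, in the submitters' processing notes. Tool versions, the counting program, its annotation and strandedness: not given in the sources used here. Genes were kept by filterByExpr (minimum count 10), leaving 13306, scaled with TMM factors and compared by edgeR 4.0.16 (R 4.3.3, quasi-likelihood test, genotype only, Benjamini-Hochberg adjustment over all genes tested, threshold 0.05). The standard error is the log2 fold change divided by the square root of F. A prior count of 2 entered log2 CPM. The summed Hspa1a and Hspa1b came from a fit with the pair merged. Library totals were 18146693 to 21972124 counts, so 3 counts equal 0.137 to 0.165 CPM; such floors cover counting error only. Transcript lengths (longest coding transcript) and positions come from GENCODE M21 and promoters from RefSeq, both GRCm38. The code was tested on simulated data.

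Members and lists were chosen with earlier results of these data known. All members are named; inducible Hsp70, the 2 members of each class with the largest absolute log2 fold change and members whose groups do not overlap get full values. Each further chaperone list gives up to 2 genes with the smallest p. Fos, Jun, Egr1, Atf3, Sftpc, Scgb1a1 and Foxj1 stand for the immediate early and marker lists. Ier3, Socs3, Myc and Cd79b were added as genes of these lists that are higher in both mTOR Tg libraries. Other marker genes higher in both were Sftpd, Ager, Rtkn2, Dynlrb2, Rsph1, Upk3b and Lrrn4. Marker genes lower in both were Pecam1, Cdh5, Kdr, Tie1 and Tek. Alternatives were DESeq2 1.42.0, limma-voom (limma 3.58.1), other scalings and filters, left-out libraries, a replicate block, and offsets for length and GC (mgcv 1.9.3).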

Additional observations from a re-analysis of the deposited data

How the results depend on the processing

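The number of genes called was 0 with edgeR under DESeq2 size factors, library size only, upper quartile scaling, no filter, a stricter filter (minimum count 50) and the length and GC correction, and with limma-voom. It was 12 with the DESeq2 test and 11 to 6199 with 1 library left out. With replicate number as a block, 37 of 13306 genes tested were called, with 4 of the 35 members among them (Hspa1a, Hspa1b, Hsph1 and Hspb1). Nothing about the members is read from that share, since the fold changes were known when they were chosen. Differences between replicates 1 and 2 correlated at 0.07 between genotypes and there are only 2 such pairs, so the numbers are not taken to pair the libraries.

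The log2 fold change of summed inducible Hsp70 ran from -4.50 to -0.17 and its fitted contrast (log2 fold change of the pair minus the median of the other members) from -4.65 to -0.43 (main value -2.49) with 1 library left out; the lowest came without mTOR Tg replicate 1 and the highest without WT replicate 1. Over the same settings the median ran from 0.34 to 0.62 for constitutive Hsp70 and Hsp110, 0.74 to 1.03 for Hsp90, 0.26 to 0.81 for HSP90 cochaperones, -0.24 to 0.57 for J proteins and Bag3, 0.010 to 0.19 for the heat-shock factors, 0.0087 to 0.32 for the further chaperone lists and -0.48 to -0.064 for immediate early genes. The length and GC correction gave 0.70 for constitutive Hsp70 and Hsp110, 0.056 for the further lists and -0.37 for immediate early genes. An alternative chosen after seeing the data left out both mTOR Tg replicate 1 and WT replicate 1. That leaves 1 library a genotype and no test. The values were then -2.56 for summed inducible Hsp70, 0.30 for constitutive Hsp70 and Hsp110, and 0.60 for Hsp90. HSP90 cochaperones were at 0.16, J proteins and Bag3 at -0.27 (0.22 with all libraries) and the TRiC chaperonin at 0.11. Small heat-shock proteins were at 0.53, mitochondrial chaperones at 0.36 and the heat-shock factors at -0.025. The further lists were at 0.05 and immediate early genes at -0.55, and 26 of 35 members were positive. The cause of these shifts was not tested. Of 490 member values under the alternatives, 63 moved by more than the spread between replicates, and 8 members changed sign under at least 1 of them. The limits are 2 libraries a genotype, shared reads between copies and a genotype in which 1 library stands apart.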
